A study of Mus musculus with 3 samples.

Results

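The sodium potassium ATPase is built from an alpha subunit, a beta subunit and, in many tissues, a small FXYD protein, and 7 of the accessory genes are described here by cell label and by library. They are the beta subunit genes *Atp1b1*, *Atp1b2* and *Atp1b3* and the FXYD genes *Fxyd1*, *Fxyd3*, *Fxyd5* and *Fxyd6*. The genes were listed by symbol, with no measured value in the rule, and make up 7 of the 31053 genes in the count matrices. They were chosen with earlier results of these data known.

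Cells of the limbus and iridocorneal angle, the corner of the eye where aqueous humor drains, were profiled by droplet single-cell RNA sequencing in mice aged 6 weeks. All animals carried *Angpt1* flox/flox on a mixed strain that had been crossed for 2 generations to albino ICR mice. The paper made this cross to have albino animals of both genotypes, and pigment cell names below refer to transcripts, not to melanin. The control libraries (replicates 1 and 2) came from animals without Cre, and the single *Angpt1*ΔNC library came from animals that also carried Wnt1-Cre, which deletes the floxed gene in neural crest cells and their descendants. Each library pooled the tissue of 2 to 3 mice of both sexes by the submitters' account, so the library and not the cell or the mouse was the replicate, and whether the pools were independent litters was not stated.

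The sodium pump moves sodium out of the cell and potassium in at the cost of ATP, and the gradient it builds drives most other transport of ions, water and nutrients. The alpha subunit is the catalytic chain. The beta subunit is a glycoprotein with a single membrane span that the alpha chain needs to fold and to reach the plasma membrane, and FXYD proteins are single-span partners that adjust the pump's affinity and rate. In the eye the pump powers fluid secretion by the ciliary epithelium and fluid removal by the corneal endothelium, and in the retinal pigment epithelium it sits, unusually, in the apical membrane.

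On GRCm38 (GENCODE M21) the beta genes lie apart from each other, *Atp1b1* at chr1:164437109-164458355, *Atp1b2* at chr11:69599736-69605942 and *Atp1b3* at chr9:96332655-96364442, all on the minus strand. Of the FXYD genes, *Fxyd5* (chr7:31032722-31042481), *Fxyd1* (chr7:31051678-31057199) and *Fxyd3* (chr7:31068172-31076704) form a minus-strand cluster together with *Fxyd7*. *Fxyd7* lies between *Fxyd5*, 31 bases away, and *Fxyd1*, 210 bases away. *Fxyd6* lies at chr9:45370185-45396159 on the plus strand, 3509 bases before *Fxyd2*. UMIs near such close gene ends could be assigned to either neighbour, and this was not tested.

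Promoters of 6 of the 7 genes were found in RefSeq's table (GRCm38.p6). The 250 bases before the annotated start are printed for the broadly detected *Atp1b3* (the upstream of its 2 starts), for *Atp1b1*, highest in pigment epithelium, for the epithelial *Fxyd3* and for *Fxyd6*, whose level differed most between the libraries, each 5′ to 3′ along the gene's strand. Capitals mark GC boxes (GGGCGG on either strand).
Atp1b3, chr9:96364432-96364681, minus strand: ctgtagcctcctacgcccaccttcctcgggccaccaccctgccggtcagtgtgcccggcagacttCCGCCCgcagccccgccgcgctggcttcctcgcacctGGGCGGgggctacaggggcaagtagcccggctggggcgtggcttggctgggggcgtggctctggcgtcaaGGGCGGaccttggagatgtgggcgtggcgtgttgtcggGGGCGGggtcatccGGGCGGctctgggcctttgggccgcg
Atp1b1, chr1:164458356-164458605, minus strand: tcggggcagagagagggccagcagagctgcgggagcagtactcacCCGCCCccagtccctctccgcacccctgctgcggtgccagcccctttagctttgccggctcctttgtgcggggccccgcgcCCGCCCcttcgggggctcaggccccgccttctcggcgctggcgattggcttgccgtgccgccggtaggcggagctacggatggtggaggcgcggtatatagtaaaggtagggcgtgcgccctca
Fxyd3, chr7:31076698-31076947, minus strand: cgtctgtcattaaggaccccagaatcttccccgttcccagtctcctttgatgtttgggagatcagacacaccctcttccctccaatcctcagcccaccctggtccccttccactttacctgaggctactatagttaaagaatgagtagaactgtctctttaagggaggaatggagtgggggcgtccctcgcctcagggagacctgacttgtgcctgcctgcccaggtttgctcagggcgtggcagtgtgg
Fxyd6, chr9:45369935-45370184, plus strand: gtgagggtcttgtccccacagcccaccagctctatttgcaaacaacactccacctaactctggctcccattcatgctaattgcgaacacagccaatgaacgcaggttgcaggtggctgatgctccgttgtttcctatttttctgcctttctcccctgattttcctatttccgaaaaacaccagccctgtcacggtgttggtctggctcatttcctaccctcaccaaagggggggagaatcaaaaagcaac

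The *Atp1b3* window held 5 GC boxes and the *Atp1b1* window 2, in sequence that was 73.6% and 70.4% G and C. The windows of *Fxyd1*, *Fxyd3*, *Fxyd5* and *Fxyd6* held none and were 57.2%, 55.2%, 55.6% and 50.4% G and C, and the second *Atp1b3* window held none at 76.8%. Of all 32851 windows of the same length, 32.7% held a GC box. The letters TATAAA (12.4% of all windows), CATGTG (an E box bound by the pigment cell factor MITF, 12.3%) and TGANTCA (the AP-1 motif, 6.75%) were found in none of the 7 windows of these genes on either strand. These are matches of letters only.

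The 3 libraries held 9076, 10160 and 6772 kept cells with a median of 6329.5, 6393.5 and 7444 UMIs (control replicate 1, control replicate 2, *Angpt1*ΔNC), and 13 to 25 barcodes were shared by any pair of libraries. The deposited tables gave each kept cell 1 of 35 labels, of which 34 had at least 10 cells in every library. *Angpt1* had a UMI in 17.2% and 17.3% of control cells and in 0.340% of *Angpt1*ΔNC cells, so the libraries matched their labels. The pools did not match in sex: cells with a Y-linked transcript and no *Xist* made up 69.7% and 72.1% of the control libraries and 29.4% of *Angpt1*ΔNC, where 57.0% of cells had *Xist* and no Y-linked transcript against at most 1 cell of either control.

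The labels were read through marker genes, ranked over the 34 labels with at least 10 cells in every library. All 5 markers of retinal pigment epithelium were highest in cluster 1, all 4 of dendritic cells in cluster 23, all 4 of T cells in cluster 22, all 4 of pericytes in cluster 20 and all 4 of smooth muscle in cluster 19. Of 5 pigment cell markers 4 were highest in cluster 8 and next highest in cluster 9, and 4 of 6 glial markers were highest in cluster 10. For ciliary epithelium 3 of 5 markers were highest in cluster 7, which also held smooth muscle *Acta2* at 51.4 UMIs per 10,000, and *Atp6v1b1* was near 0 everywhere. For corneal endothelium 3 of 4 markers were highest in TM2. All 3 markers of Schlemm's canal endothelium (*Prox1*, *Ccl21a* and *Nupr1*) were highest in the label SC, and for trabecular meshwork all 4 were highest in TM4. The paper named those 3 canal genes from these same cells. The lymphatic label LEC, with 3, 1 and 12 cells, was too small to enter this ranking, so SC was not set against it. For limbal epithelium 2 of 4 were highest in cluster 4 and 2 in the conjunctival cluster 3.

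Levels below are means over the cells of a label of UMIs per 10,000 UMIs of the cell, given in the order control replicate 1, control replicate 2, *Angpt1*ΔNC. One UMI stands for a captured RNA molecule, whatever the gene's length, but capture differs between genes, so levels are compared between labels, and the shares of a gene family given further on rank genes by UMIs captured, not by molecules present. The labels were made by clustering these same cells, so labels were not tested against each other, and the order of labels is a description. Over all kept cells *Fxyd3* had 102980 UMIs, *Atp1b3* 54771, *Fxyd1* 53347, *Fxyd6* 34743, *Fxyd5* 24741, *Atp1b1* 13136 and *Atp1b2* 5508. A UMI was found for *Atp1b3* in 71.1% of cells and for *Fxyd1* in 57.7%, while *Fxyd3*, with the most UMIs, was found in 21.2%.

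**Figure D1:**
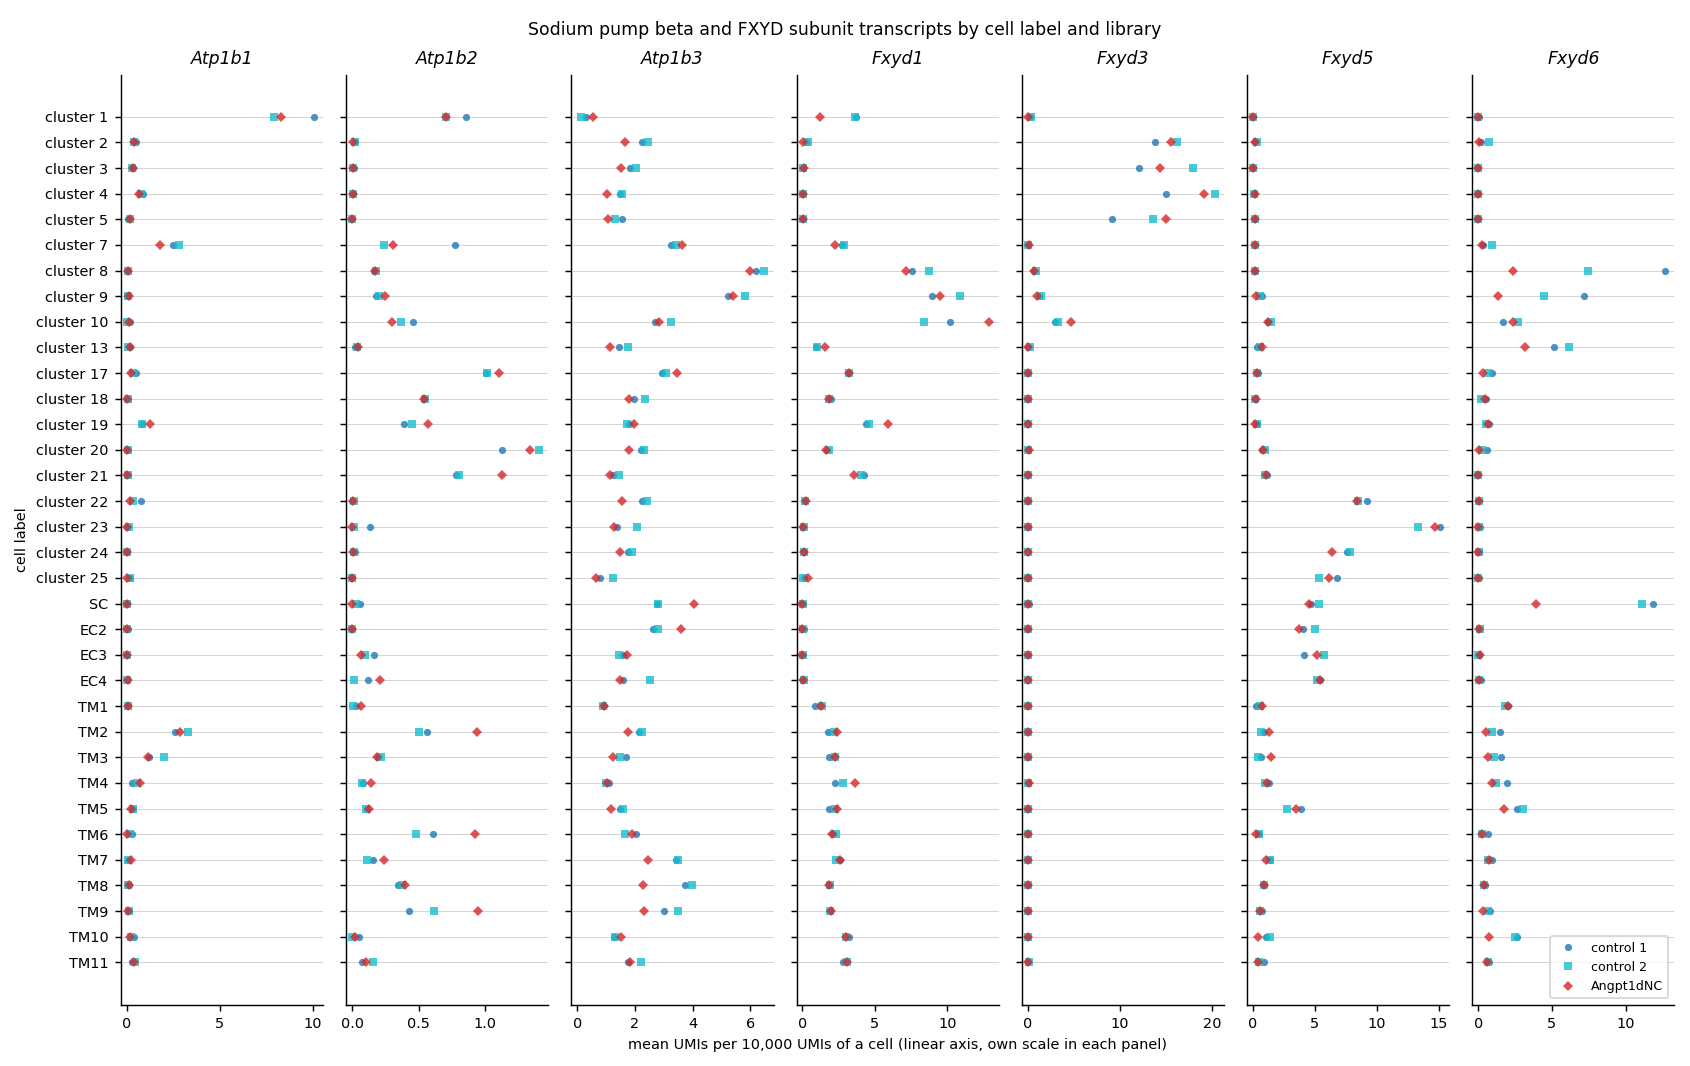
Level of each of the 7 genes in the 34 labels with at least 10 cells in every library, as the mean over cells of UMIs per 10,000 (linear axis, with its own scale in each panel). Points are single libraries, blue circles and cyan squares the 2 controls and red diamonds *Angpt1*ΔNC; *Atp1b1* stands out in cluster 1, *Fxyd3* in clusters 2 to 5, *Fxyd5* in clusters 22 to 25, and the *Fxyd6* points of SC and cluster 8 lie far apart between libraries.

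*Atp1b3*, the beta subunit found in most tissues, was the most widely spread of the beta genes. Its level was 6.21, 6.48 and 6.00 in the pigment cells of cluster 8 and 5.22, 5.82 and 5.39 in the melanocytes of cluster 9. Neither range overlapped that of the next label. In cluster 8 between 99.3% and 99.6% of cells had an *Atp1b3* UMI. The median over labels was 1.87, and labels ranked 3 to 10, from the ciliary cluster 7 (3.23, 3.42 and 3.62) down to the glial cluster 10 (2.70, 3.25 and 2.82), overlapped one another in part. The lowest label was the pigment epithelium of cluster 1, at 0.313, 0.144 and 0.537, below the ranges of all other labels.

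*Atp1b1*, the beta subunit of most transporting epithelia, was highest where *Atp1b3* was lowest. In cluster 1 its level was 10.0, 7.94 and 8.29 and a UMI was found in 91.4% to 97.7% of cells. The corneal endothelium of TM2 followed at 2.60, 3.30 and 2.84 and cluster 7 at 2.48, 2.80 and 1.78, with ranges that overlapped. TM3 was next (1.22, 2.01 and 1.16), and the median label stood at 0.131. The ranges of cluster 1 and TM2 did not overlap.

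Among leukocytes *Atp1b1* was higher in the T cells of cluster 22 than in the macrophages of cluster 24, on few UMIs. Cluster 22 ranked 8th, at 0.765, 0.319 and 0.182 on 30, 12 and 6 UMIs. The ranges of 11 lower labels overlapped its range. There 5.71% to 14.6% of cells had a UMI, at median depths of 2267 to 2531 UMIs. In the macrophages of cluster 24 a UMI was found in 2 of 515, 8 of 659 and 3 of 401 cells (0.388%, 1.21% and 0.748%) at median depths of 6577, 6554 and 6903 UMIs. With every cell thinned to 1000 UMIs, the share in cluster 1 was still 50.6% to 66.2% and that in cluster 24 at most 0.249%. Counting intervals for shares are exact 95% Clopper-Pearson intervals and cover counting error only.

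*Atp1b2*, the beta subunit best known from astrocytes and muscle, was low throughout and highest in pericytes. The smooth muscle of cluster 19 ranked only 9th, at 0.392, 0.447 and 0.570. The pericytes of cluster 20 had 1.13, 1.40 and 1.33 and did not overlap the next label, cluster 17, at 1.01, 1.01 and 1.11. The smooth muscle-like cells of cluster 21 (0.782, 0.802 and 1.12) and cluster 1 (0.855, 0.707 and 0.704) came next, and both cluster 17 and cluster 21 overlapped the label below. The glial cluster 10 ranked 11th, at 0.455, 0.369 and 0.302. No UMI was found in the endothelial label EC2 (107 cells) or in the macrophages of cluster 25 (195 cells, median depths of 1321 to 1728 UMIs), and the exact upper limits for the share of cells with a UMI, which do not limit the share of cells expressing the gene, were 9.25% to 10.9% and 4.45% to 6.38% per library.

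As shares of the UMIs of the 3 beta genes, on the mean of the 3 libraries, *Atp1b3* led in 32 of 34 labels and *Atp1b1* in the other 2. The leading gene was the same in every library in 32 labels and not in cluster 21 and TM3. In cluster 1 *Atp1b1* took 88.3%, 90.2% and 86.3% of the beta UMIs, and in TM2 49.6%, 55.9% and 55.5%. It took 40.6%, 53.7% and 44.0% in TM3, and 43.5%, 42.5% and 33.6% in cluster 7. The limbal cluster 4 followed at 36.9%, 32.1% and 38.4%. *Atp1b2* took its highest shares in clusters 20 and 21, at 33.4%, 37.7% and 44.9% in cluster 20, against 12.6% to 16.7% in the smooth muscle of cluster 19. In cluster 21 it took 36.4% and 32.2% in the controls and 41 of 82 beta UMIs in *Angpt1*ΔNC. In clusters 20 and 21 the *Angpt1*ΔNC share was above those of both controls, and this difference was not tested.

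**Figure D2:**
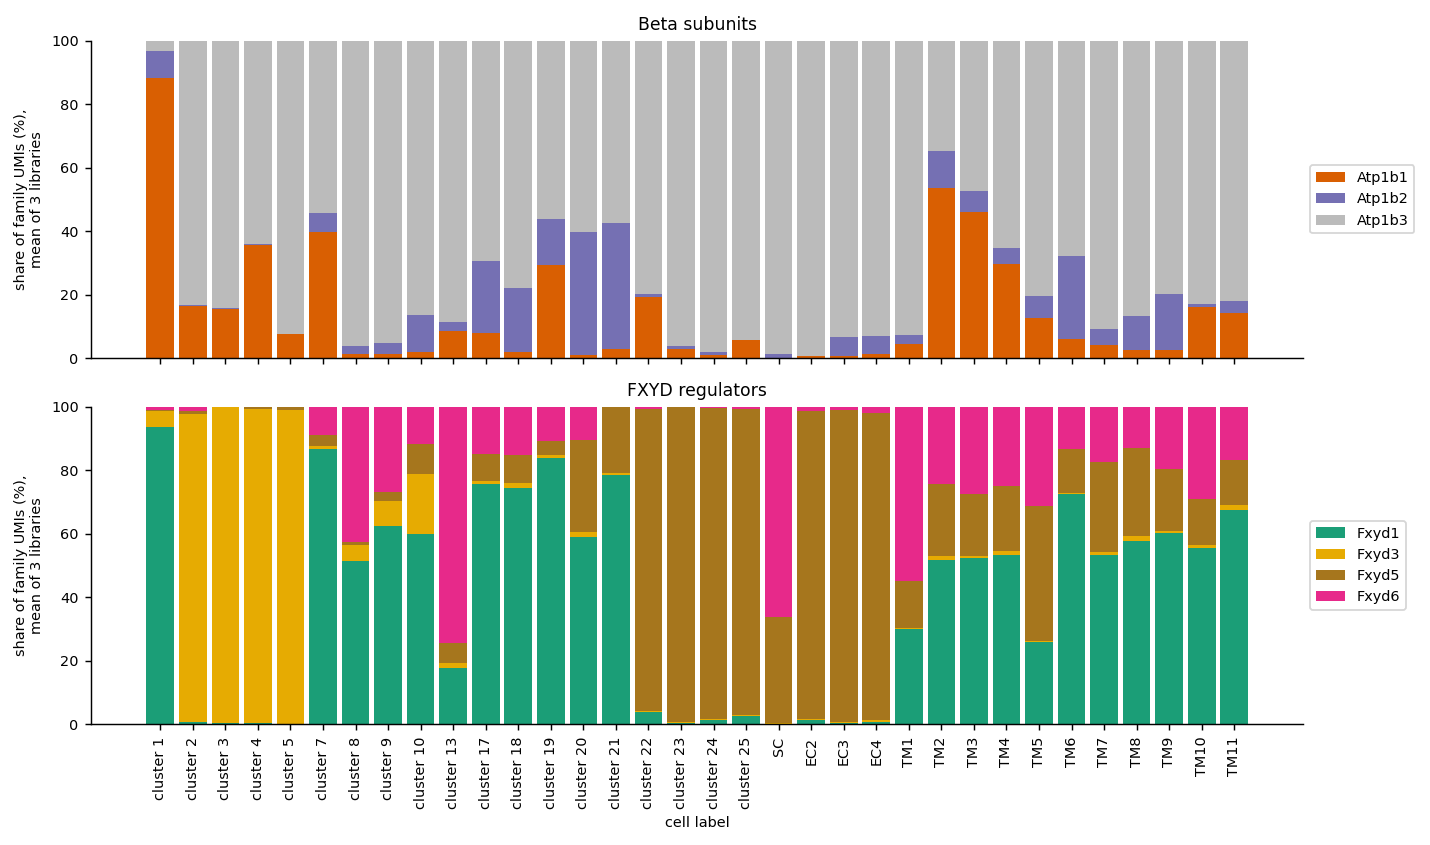
Shares of the summed UMIs of the 3 beta subunit genes (top) and of the 4 FXYD genes (bottom) in each of 34 labels, as stacked bars of the mean of the 3 libraries in percent. *Atp1b1* fills most of the bar in cluster 1, *Fxyd3* nearly all of it in clusters 2 to 5, *Fxyd5* in clusters 22 to 25 and EC2 to EC4, and *Fxyd6* most of it in cluster 13 and SC.

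*Fxyd1*, or phospholemman, which restrains the pump in heart and muscle until it is phosphorylated, was highest in glia and pigment cells. The glial cluster 10 had 10.2, 8.36 and 12.9 and cluster 9 had 8.97, 10.9 and 9.51, so these labels did not differ beyond their spread. Cluster 8 (7.54, 8.76 and 7.15) and the smooth muscle of cluster 19 (4.37, 4.60 and 5.91) followed without overlap with the next label. On the mean share of the 3 libraries *Fxyd1* led the 4 FXYD genes in 19 of 34 labels, among them every stromal label but cluster 13, TM1 and TM5. The leading FXYD gene was the same in every library in 32 labels. The exceptions were TM5 and cluster 8, where *Fxyd6* led in control replicate 1 (60.8% against 35.1% for *Fxyd1*). *Fxyd1* was low in surface epithelium, leukocytes and endothelium, with 0.0229, 0.0171 and 0.0115 in the corneal cluster 5 (3.30%, 3.76% and 2.59% of cells at median depths of 21528, 18747 and 20189 UMIs).

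*Fxyd3*, a regulator found in skin, gut and cancer epithelia, marked the surface epithelium. The limbal cluster 4 had 15.1, 20.3 and 19.1, the cycling cluster 2 had 13.9, 16.3 and 15.5, and the conjunctival cluster 3 had 12.1, 17.99 and 14.4. The corneal cluster 5 had 9.17, 13.6 and 15.0. Each of these labels overlapped the next in this order, clusters 4 and 5 did not overlap each other, and none of the 4 overlapped any other label. In each of them *Fxyd3* led the FXYD genes, in the other 30 it did not, and the median label had 0.0474.

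A second, lower tier of *Fxyd3* lay in the glial and pigment cell labels. Cluster 10 had 2.91, 3.29 and 4.66, cluster 9 had 1.19, 1.47 and 1.04, and cluster 8 had 0.717, 0.857 and 0.675, none of them overlapping its neighbours. In cluster 10 a UMI was found in 20.3%, 23.0% and 32.9% of cells, against 0%, 0.752% and 0.952% of T cells in cluster 22 and 1.75%, 2.43% and 2.00% of macrophages in cluster 24. After thinning to 1000 UMIs these shares were 11.6%, 14.2% and 21.4% in cluster 10, at most 0.952% in cluster 22 and at most 0.748% in cluster 24. The glial share was thus above the share in cells that should lack the gene, and whether single epithelial cells or their RNA add to it was not tested.

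*Fxyd5*, or dysadherin, which lowers cell adhesion as well as binding the pump, was highest in leukocytes and then in endothelium. The dendritic cells of cluster 23 had 15.1, 13.3 and 14.7 and the T cells of cluster 22 had 9.20, 8.45 and 8.41, neither overlapping the next label. The macrophages of clusters 24 (7.57, 7.83 and 6.40) and 25 (6.77, 5.36 and 6.13) overlapped each other. Cluster 25 also overlapped the endothelial labels EC4 and EC3. The endothelial labels EC4, EC3, SC and EC2 filled ranks 5 to 8 with values from 3.69 to 5.73, each overlapping the next. TM5, a trabecular label, was the highest of the others at 3.91, 2.79 and 3.49 and overlapped EC2. *Fxyd5* led the FXYD genes in 8 labels. It was lowest in cluster 1, with 0.0281, 0.00473 and 0.

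*Fxyd6*, or phosphohippolin, known from brain and inner ear, was the member whose level differed most between libraries. In Schlemm's canal endothelium (SC) it stood at 11.9, 11.1 and 3.90, on 46, 63 and 15 cells. From summed UMIs the SC values were 11.5, 11.5 and 6.41, and 1 cell held 41 of the 94 *Angpt1*ΔNC UMIs. It stood in cluster 8 at 12.7, 7.44 and 2.38. The stroma of cluster 13 had 5.14, 6.15 and 3.20 and the melanocytes of cluster 9 had 7.17, 4.47 and 1.36. In all 4 labels the *Angpt1*ΔNC value was below both controls, and in clusters 8 and 9 control replicate 1 also lay well above control replicate 2. A lone library can lie below both others without any difference between groups, and the 4 labels share the same libraries. TM5 (2.64, 3.02 and 1.74), glial cluster 10 (1.68, 2.70 and 2.35) and TM10 (2.65, 2.47 and 0.753) followed.

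The endothelial labels were unlike each other in *Fxyd6*. SC had a UMI in 93.5%, 81.0% and 40.0% of cells, while in the blood endothelial labels EC2, EC3 and EC4 the share ran from 1.15% to 6.90% over the libraries. The lymphatic label LEC, with 3, 1 and 12 cells, was too small to be ranked. Its 4 male-typed and 8 female-typed *Angpt1*ΔNC cells had *Fxyd6* levels of 8.49 and 11.9. In the controls 2 male-typed LEC cells of replicate 1 held 10 UMIs and 1 of replicate 2 held 6. On these few cells a high *Fxyd6* level was not particular to SC. In the limbal epithelium of cluster 4 the share was 1.45%, 2.37% and 0.936% at median depths of 12359 to 14480.5 UMIs. On the mean share of the 3 libraries *Fxyd6* led the FXYD genes in SC, cluster 13 and TM1.

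The genes most like each member were taken as the 3 highest Pearson correlations over the 34 labels of log2(1 + level), among 11678 genes with at least 500 UMIs. The points share libraries and depth, so these are descriptions. *Fxyd3* followed *Krt14*, a keratin of basal epithelium (r = 0.948), *Wnt7b* (0.945) and *Serpinb5* (0.944). *Fxyd5* followed *Srgn*, the core protein of leukocyte granule proteoglycan (0.907), *Bax* (0.859) and *Gngt2* (0.851), and *Fxyd1* followed *Osbpl1a* (0.901), *Tcaf1* (0.896) and the small heat shock protein gene *Cryab* (0.866). *Atp1b1* followed *Wfikkn2* (0.893), *Ociad2* (0.863) and the simple epithelial keratin *Krt18* (0.856). *Atp1b2* followed *Pygm*, muscle glycogen phosphorylase (0.819), and *Trp53inp2* (0.811). For *Atp1b3* (*Rictor* 0.759, *Irgm1* 0.750, *Pikfyve* 0.741) and *Fxyd6* (*AC165953.2* 0.795, *Nek7* 0.789, *Mettl9* 0.759) the values were lower.

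Among the other pump genes *Atp1a4* (68 UMIs) and *Atp1b4* (2 UMIs) were near absent, as were the proton pump genes *Atp4a* (4), *Atp4b* (0) and *Atp12a* (24). *Fxyd2*, the gamma subunit of kidney, was highest in cluster 8 (2.29, 3.16 and 3.46) and cluster 9 (1.33, 1.56 and 2.63).

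Whether the loss of *Angpt1* from the neural crest went with a change of these genes was asked within each label. UMIs were summed per library and the *Angpt1*ΔNC library was compared with the 2 controls by edgeR's quasi-likelihood test in 29 labels with at least 50 cells in every library, over genes with at least 30 UMIs, with Benjamini-Hochberg adjustment within the label and a threshold of 0.05. The fit had 1 residual degree of freedom and took the lone *Angpt1*ΔNC library to vary like the controls, so p-values measure only a spread between pools. That spread is estimated with values shared over the genes of a label, so it need not match the gene's own spread. Of 151 tests of a member in a label 15 passed, 9.93%, against 5.59% of all 226126 tests of a gene in a label. By gene the share was 33.3% for *Fxyd6*, 13.8% for *Fxyd5* and 9.09% for *Fxyd3* (1 of 11 tests). It was 5.56% for *Atp1b1* and for *Atp1b2*, 3.45% for *Atp1b3* and 0% for *Fxyd1*, near or below the share of all genes. DESeq2 passed 5 of the 128 member tests for which it gave an adjusted p, against 1.85% of its tests of all genes. The labels share the same 3 libraries, so calls in different labels are not independent, and the loss of *Angpt1*, the Wnt1-Cre transgene, the pool's sex makeup and its mixed background cannot be told apart.

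**Figure D3:**
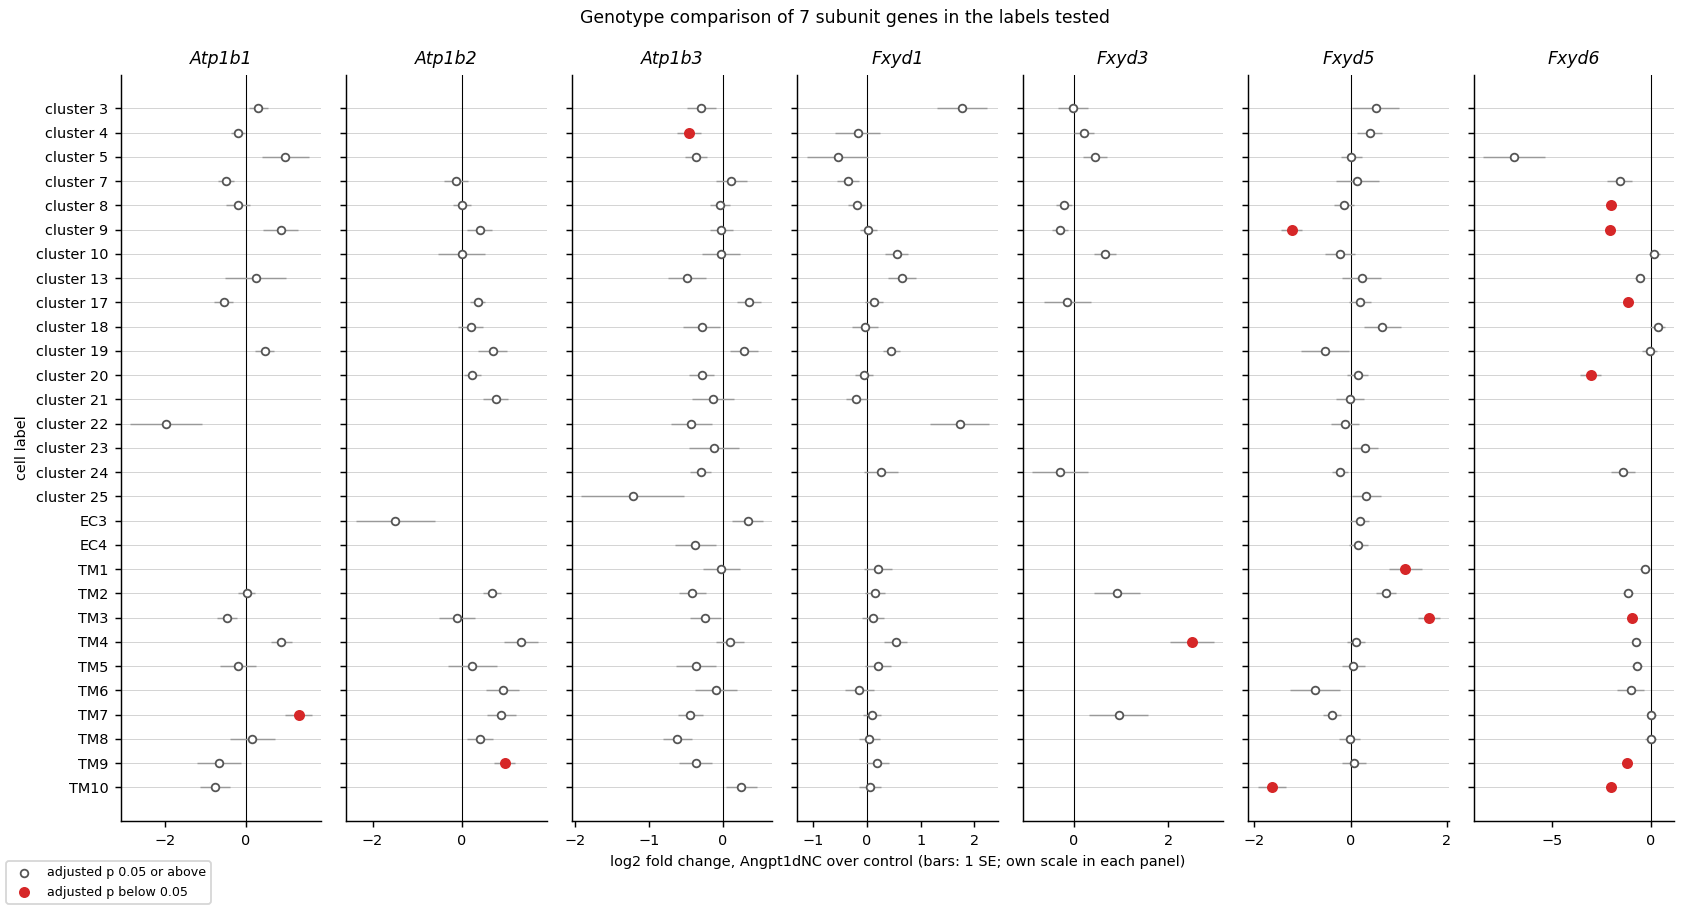
Log2 fold change of *Angpt1*ΔNC over control for the 7 genes in the labels where each was tested, with bars of 1 SE and its own axis in each panel. Filled red points have an adjusted p below 0.05 (edgeR) and open points do not; *Fxyd6* has 7 filled points, all below 0, and *Fxyd1* has none.

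*Fxyd6* carried 7 of the 15 calls. It was lower in *Angpt1*ΔNC in 7 of the 21 labels where it was tested and higher in none, against 3.01% of all tests in those labels that called a gene lower. The 7 labels were clusters 8, 9, 17 and 20 and TM3, TM9 and TM10. The median log2 fold change over the 21 labels was -1.01. DESeq2 gave 4 calls for *Fxyd6*, in clusters 8, 9 and 20 and TM10, of 18 labels with an adjusted p.

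In cluster 8 the summed *Fxyd6* UMIs were 11202, 5550 and 1261, and the log2 fold change was -2.03 (SE 0.26, edgeR adjusted p = 0.0010, DESeq2 adjusted p = 0.032). The shift ran through the whole population of cells: the median cell had 11.4, 6.72 and 1.75 UMIs per 10,000, and 0.358%, 9.52% and 30.1% of cells had no UMI. The 2 controls themselves stood at 12.7 and 7.44, in a label where all 5 pigment cell markers together stood at 456, 512 and 559. Against control replicate 2 alone the log2 fold change was -1.63, and against control replicate 1 alone -2.34.

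In cluster 9 the UMIs were 2866, 2114 and 291, with a log2 fold change of -2.08 (SE 0.18, edgeR adjusted p = 8.8e-28, DESeq2 adjusted p = 0.0020). The share of cells without a UMI was 15.3%, 29.8% and 58.9%. The levels were 7.17, 4.47 and 1.36, and the edgeR adjusted p is far smaller than that of DESeq2 on the same counts.

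In TM10, a *Cd34* stroma label, *Fxyd6* stood at 2.65, 2.47 and 0.753, with a log2 fold change of -2.03 (SE 0.24, edgeR adjusted p = 7.1e-07, DESeq2 adjusted p = 3.7e-05). Here the controls lay close together and *Angpt1*ΔNC well below them. In the pericytes of cluster 20 the levels were 0.586, 0.287 and 0.0432 on 124, 70 and 5 UMIs, a log2 fold change of -3.04 (SE 0.54, edgeR adjusted p = 0.00018, DESeq2 adjusted p = 0.022), which was -2.27 without control replicate 1 and -3.18 without control replicate 2. The 5 markers of pigment cells, which held the most *Fxyd6* UMIs, together stood at 1.40, 1.33 and 1.23 in cluster 20 and at 0.792, 1.46 and 0.866 in TM10, with none at 0, and their part in the result was not tested.

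The other 3 *Fxyd6* calls were made by edgeR and not by DESeq2. In cluster 17 the levels were 0.930, 0.653 and 0.299 (log2 fold change -1.16), in TM9 0.796, 0.681 and 0.297 (-1.20) and in TM3 1.53, 1.06 and 0.661 (-0.95). In TM9 the 5 pigment cell markers together were lower in *Angpt1*ΔNC too (1.42, 1.39 and 0.897), and their part in the result was not tested. The DESeq2 adjusted p was 0.064 in cluster 17, 0.25 in TM9 and 0.51 in TM3.

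In other labels *Fxyd6* did not pass. The log2 fold change was -1.16 (SE 0.27, edgeR adjusted p = 0.073) in corneal endothelium TM2, -0.57 (SE 0.23, adjusted p = 0.14) in cluster 13, -0.73 (SE 0.24, adjusted p = 0.11) in TM4 and -0.69 (SE 0.25, adjusted p = 0.12) in TM5. It was near 0 in TM7 (0.03, SE 0.21), TM8 (-0.01, SE 0.28) and smooth muscle cluster 19 (-0.06, SE 0.37), and above 0 in glial cluster 10 (0.18, SE 0.28) and cluster 18 (0.35, SE 0.38). In the corneal cluster 5 the UMIs were 17, 18 and 0, so the plotted fold change there is a fitted value and no measure of size (adjusted p = 0.094). The difference between these labels and those with a call was not tested. Schlemm's canal entered the test only with the limit lowered to 10 cells per library, where *Fxyd6*, on summed UMIs, had a log2 fold change of -0.70 (SE 0.22) and an adjusted p of 0.15 and 1.53% of all genes in that label were called.

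**Figure D4:**
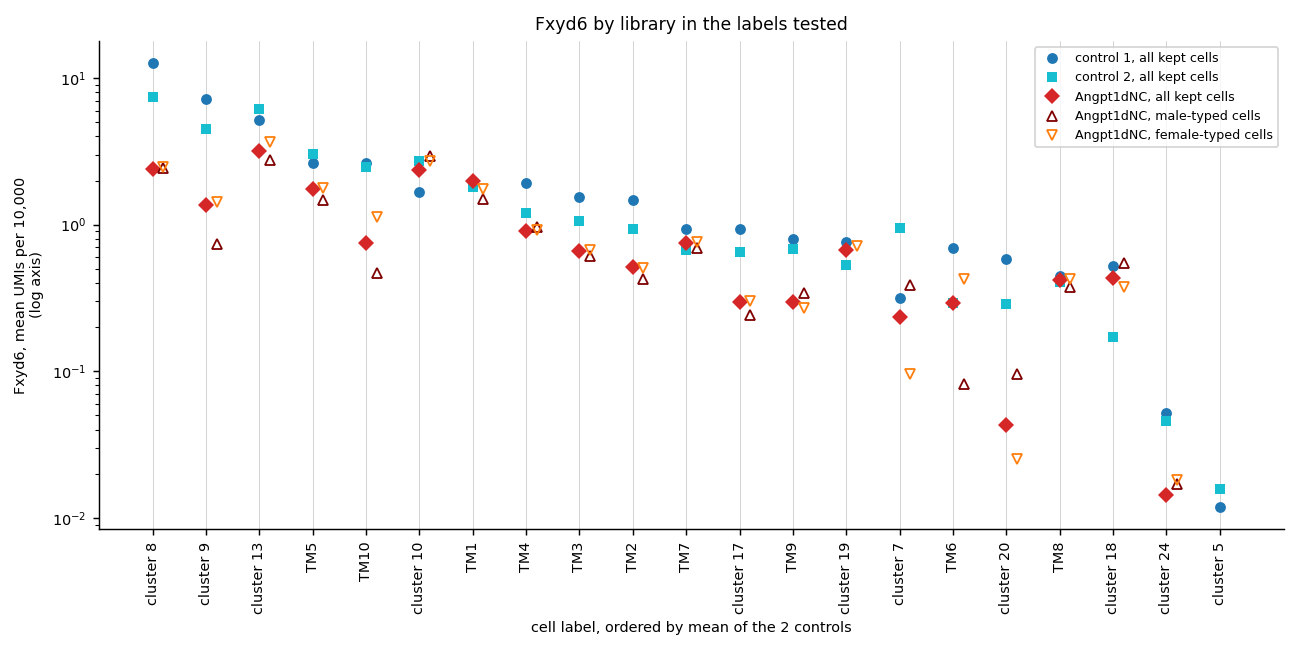
Level of *Fxyd6* in the 21 labels where it was tested, in mean UMIs per 10,000 on a log axis, for the 2 controls (blue circles, cyan squares), *Angpt1*ΔNC (red diamonds) and the male-typed and female-typed cells of *Angpt1*ΔNC (open triangles). Values of 0 are not drawn (such as *Angpt1*ΔNC in cluster 5); in clusters 8, 9, 17 and 20 and in TM10 both open triangles lie below the control points, while in TM7, TM8 and cluster 10 they lie among or near them.

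Since the pools differed in sex, *Fxyd6* was also given by typed cells. Male-typed and female-typed *Angpt1*ΔNC cells had 2.43 and 2.45 in cluster 8 (134 and 277 cells), 0.736 and 1.43 in cluster 9 (44 and 207 cells), 0.243 and 0.302 in cluster 17, and 0.470 and 1.13 in TM10. In each of these labels both stood below both controls. With male-typed cells alone in all libraries, a choice made after seeing the data, *Fxyd6* was lower in 6 of 16 labels, against 1.76% of all tests in those labels that called a gene lower. The log2 fold changes were -2.02 in cluster 8, -3.06 in cluster 9, -1.25 in cluster 17, -2.21 in cluster 20, -1.36 in TM2 and -2.97 in TM10. In that order these rest on 408, 21, 27, 3, 31 and 30 UMIs in *Angpt1*ΔNC. TM3 and TM9 did not pass with male-typed cells, while TM2, which had no call with all cells, did.

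*Fxyd2*, the neighbour of *Fxyd6* on chromosome 9, was higher in *Angpt1*ΔNC in cluster 9 (1.33, 1.56 and 2.63, log2 fold change 0.83, edgeR adjusted p = 3.2e-06), with no call in cluster 8 (log2 fold change 0.38, adjusted p = 0.25). *Fxyd1* passed in neither label. The share of *Fxyd6* among the 4 FXYD genes was 60.1%, 43.2% and 23.0% by mean levels in cluster 8 and 39.7%, 25.6% and 11.2% in cluster 9.

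*Fxyd5* had calls in both directions. In cluster 9 it stood at 0.733, 0.589 and 0.207 (log2 fold change -1.22, SE 0.22, edgeR adjusted p = 1.9e-06, DESeq2 adjusted p = 0.080), and in TM10 at 1.06, 1.37 and 0.434 (-1.63, SE 0.30, edgeR adjusted p = 0.00038, DESeq2 adjusted p = 0.069). The TM10 value was -1.95 without control replicate 1 and -1.15 without control replicate 2. In TM3 it was higher, at 0.657, 0.419 and 1.43, with 29.2%, 22.1% and 54.0% of cells holding a UMI (log2 fold change 1.62, SE 0.23, edgeR adjusted p = 6.0e-06, DESeq2 adjusted p = 0.026). In TM1 it stood at 0.221, 0.530 and 0.762 (1.13, SE 0.34, edgeR adjusted p = 0.046, DESeq2 unadjusted p = 0.35). That log2 fold change was 0.51 without control replicate 1 and 2.05 without control replicate 2. The 4 dendritic cell markers together were at 0.153, 0.140 and 0.271 in TM3 and the 4 macrophage markers at 0.254, 0.397 and 0.210, and 2 of the 4 dendritic markers were at 0 in every library. In the leukocyte and blood endothelial labels where *Fxyd5* was highest no test passed.

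Each beta subunit gene had 1 call, a share of its tests no higher than the 5.59% of all tests of all genes. *Atp1b3* was lower in limbal cluster 4, at 1.47, 1.56 and 1.04 (log2 fold change -0.46, SE 0.16, edgeR adjusted p = 0.041), and passed in none of the other 28 labels, with a median of -0.29. *Atp1b2* was higher in TM9, at 0.431, 0.615 and 0.945 (0.97, SE 0.24, edgeR adjusted p = 0.00086), and its log2 fold change was above 0 in 14 of 18 labels, with a median of 0.39. Pericyte markers, the label type where *Atp1b2* was highest, stood at 3.32, 3.04 and 1.67 in TM9. *Atp1b1* was higher in TM7, at 0.0781, 0.0856 and 0.241 on 37, 42 and 29 UMIs (1.32, SE 0.34, edgeR adjusted p = 0.034), where the 5 pigment epithelium markers together stood at 0.362, 0.242 and 0.0909 and 3 of them were at 0 in *Angpt1*ΔNC. DESeq2 gave no adjusted p for *Atp1b1* in TM7, 0.68 for *Atp1b3* in cluster 4 and 0.49 for *Atp1b2* in TM9. It called none of its 14 *Atp1b1*, 13 *Atp1b2* and 28 *Atp1b3* tests, with an unadjusted p under 0.05 in 1 test of each gene.

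*Fxyd3* was called higher in TM4, the trabecular label, where it was close to background. The UMIs were 4, 11 and 45, the levels 0.0160, 0.0382 and 0.144, and 1.40%, 3.33% and 9.003% of cells had a UMI (log2 fold change 2.51, SE 0.47, edgeR adjusted p = 0.0069, no adjusted p from DESeq2). That value was 1.88 without control replicate 1 and 2.85 without control replicate 2. The 4 limbal epithelial markers together stood at 0.340, 0.262 and 0.459 in the same cells and none was at 0, and their part in the *Fxyd3* value was not tested. In the epithelial clusters 3, 4 and 5, where *Fxyd3* is abundant, its log2 fold changes of -0.01, 0.23 and 0.45 did not pass.

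*Fxyd1* passed in none of 25 labels by edgeR, with 6 unadjusted p-values under 0.05, and in none of 24 by DESeq2, with 0. With the limit lowered to 10 cells, the pigment epithelium of cluster 1 entered with 133, 81 and 17 cells. There *Fxyd1* stood at 3.68, 3.64 and 1.24 (log2 fold change -1.63, SE 0.28, edgeR adjusted p = 0.0014), while *Atp1b1* had a log2 fold change of -0.17 (adjusted p = 0.72). *Fxyd3* in cluster 1 had 54, 38 and 0 UMIs (adjusted p = 0.011), and 8.23% of all genes of that label were called. The 17 cells are the whole *Angpt1*ΔNC basis of these calls.

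The share of all genes called differed between labels and is the measure for the calls above. It was 9.91% in cluster 8, 13.1% in cluster 9, 7.26% in cluster 17, 10.9% in cluster 20, 12.4% in cluster 4, 4.12% in TM1, 5.92% in TM3, 6.27% in TM4, 8.29% in TM7, 16.7% in TM9 and 10.1% in TM10. The highest share was in TM9, where both *Fxyd6* and *Atp1b2* were called.

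Of the 15 other pump genes fixed as a list 10 had enough UMIs for a test, and 8 of their 89 tests passed (5 higher, 3 lower), or 8.99% against 5.59% of all tests. The list was chosen with earlier results of these data known, so its share is a description. *Fxyd7* was lower in cluster 9 (-2.60, on 32, 44 and 3 UMIs), where its neighbour *Fxyd5* was lower too. *Fxyd2* in cluster 9 and *Nkain3* in TM8 (2.85) were higher. DESeq2 called none of 56 tests, with an unadjusted p under 0.05 in 4, against 1.85% of all its tests called.

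Of 10 genes of the sodium and potassium route 8 were tested, with 18 of 124 tests passed (9 higher, 9 lower), or 14.5% against 5.59% of all tests. This list too was chosen with earlier results of these data known, so its share is a description. *Kcnj13*, a potassium channel of pigment cells, was higher in clusters 8 (0.86) and 9 (1.29), the labels where *Fxyd6* was lower. *Sgk1*, a kinase that raises sodium transport, was lower in clusters 4 (-1.85), 8 (-1.19) and 9 (-1.63). *Slc12a2*, the sodium potassium chloride cotransporter, was higher in clusters 8 (0.70) and 9 (1.10) and lower in clusters 4 and 17 and in TM3, TM4 and TM5 (-0.71 to -1.05). *Kcnk1* was higher in clusters 4 and 13 and in TM4, and *Wnk1* was higher in cluster 24 and lower in cluster 18. *Kcnj10* was called higher in cluster 9 at low levels of 0.0208, 0.0156 and 0.106. Only 0.751% to 5.48% of those cells had a *Kcnj10* UMI. DESeq2 called 7 of 113 (4 higher, 3 lower), against 1.85% of all its tests.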

How the data were processed

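UMI counts per gene and cell in 3 droplet libraries were made by the authors with Cell Ranger on mm10 (version 2.1.1 in the submitters' processing notes, 3.0.2 in the matrix headers) and deposited as raw counts, and the deposited tables of kept cells give a cluster label per cell, made in Seurat 3.1.3 after removal of doublets and of cells under 200 genes or 1000 UMIs or above 10% mitochondrial UMIs. The integrated gene values in those tables were not used. Of 11255, 12625 and 8614 called cells, 9076, 10160 and 6772 kept cells held 76981606, 80346829 and 66484181 UMIs. Low genes go undetected in many single cells at this depth.

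Levels, shares and likeness were computed with Python 3 (numpy, scipy), thinned cells with a fixed seed, and genotype tests with edgeR 4.0.16 (TMM, quasi-likelihood F-test) on counts summed per library and label in R 4.3.3. The SE is the absolute log2 fold change divided by the square root of F. DESeq2 1.42.0, RLE factors, no count filter, equal cell numbers, 3 broad classes, other cell limits, male-typed cells and left-out controls were alternatives. The fit was tested on simulated data. Named genes are the 7 members, the 3 genes most like each, 15 other pump genes, 10 transport genes and *Angpt1*. Some genes named by this rule are not reported here. The members and lists were chosen with earlier results of these data known. GENCODE M21 matched 31011 of 31053 gene identifiers. Samples were grouped by genotype as labelled.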

Additional observations from a re-analysis of the deposited data

Results flagged for a closer look

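*Fxyd5* moved in opposite directions in different labels of the same *Angpt1*ΔNC library, above both controls in TM1 and TM3 and below both in cluster 9 and TM10. Its log2 fold change in TM3 exceeded that in TM10 by 3.25 and that in cluster 9 by 2.84. In TM1 it exceeded that in TM10 by 2.76 and that in cluster 9 by 2.36. The differences themselves were not tested, and DESeq2 called only the one in TM3. Groups of 2 and 1 libraries are too small to look for single outlying libraries.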

How the results depend on the processing

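The count of member calls, 15 of 151 tests by edgeR, was 5 of 128 by DESeq2, 9 of 132 with equal numbers of cells, 24 of 202 without the filter on low counts and 2 of 18 in 3 broad classes (*Fxyd6* lower in endothelium, *Atp1b2* higher in stroma). SC made up 15.6%, 19.3% and 7.18% of the cells of the endothelial class in the 3 libraries, and SC itself did not pass. The class also held 3, 1 and 12 cells of the lymphatic label LEC. Of the 223 *Fxyd6* UMIs of the class in *Angpt1*ΔNC, male-typed LEC cells held 61 and female-typed LEC cells 61. The makeup of the class thus differed between the libraries, and its part in the call was not tested. With male-typed cells alone, chosen after seeing the data, the count was 9 of 116. Of all genes 1.85%, 4.28%, 3.83%, 8.45% and 3.07% were called under these 5 settings in turn. The count of member calls was 14 with RLE factors, and 15 and 17 with at least 20 or 10 cells per library. Of the 15 calls 5 also passed by DESeq2, which gave an adjusted p for 13, 7 with equal numbers of cells, 13 without the count filter and 7 with male-typed cells alone. No named call changed direction under any of these settings. With one control left out the fit has no residual degrees of freedom and gives values only: *Fxyd6* in cluster 8 ranged from -2.34 to -1.63, in cluster 9 from -2.33 to -1.76, in cluster 20 from -3.18 to -2.27 and in TM3 from -1.16 to -0.68. *Fxyd5* ranged from 0.51 to 2.05 in TM1, from 1.34 to 1.84 in TM3 and from -1.95 to -1.15 in TM10, *Fxyd3* in TM4 from 1.88 to 2.85 and *Atp1b2* in TM9 from 0.73 to 1.29. The other 6 calls moved by less than 1 SE. No paired analysis was possible because the groups share fewer than 2 replicate numbers. Of the levels in the highest label, that of *Fxyd5* in cluster 23 was 11.4 from summed UMIs against 14.4, and the others moved by less than the spread between libraries. Thinning to 1000 UMIs gave *Atp1b1* 85.6% of beta UMIs in cluster 1 and *Atp1b3* 95.9% in cluster 8. Of the 21 genes most like a member, 4 were shared with Spearman and 11 with the controls alone. Shallow labels limit what could be seen: cluster 25, at medians of 1321 to 1728 UMIs per cell, could not show a low member.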
